A study of Mus musculus with 9 samples.

Results

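The 36 genes described here were grouped under the ATF4 program, serine synthesis and tRNA synthetases. They are ATF4 and related regulators, enzymes of serine and asparagine synthesis, folate enzymes that take up serine carbon, amino acid transporters, cytosolic tRNA synthetases and a pair of endoplasmic reticulum (ER) genes. Being listed does not show that ATF4 controls a gene. The genes were listed by symbol, with earlier results of these data known, out of the 18193 genes that the arrays measured by name. No measured value enters the rule itself. Symbols of 35 genes were in the probe table as given, and Mars was found through a RefSeq synonym. Each gene was read from 1 probe set, the one with the highest mean over the 9 arrays, out of 79 probe sets in all.

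Gene expression was measured on Affymetrix arrays in endothelial cells (ECs) sorted from the lungs of NSG mice, which lack T, B and NK cells, in 3 groups of 3 arrays. In the metastatic groups, mice aged 6 to 8 weeks received MDA-MB-231-LM2 cells, human breast cancer cells selected for growth in lung, through the tail vein, and lungs were taken on day 25. On days 21 and 24 they were given either rat IgG as control or the VEGFR2-blocking antibody DC101 at 40 mg/kg. The healthy group held mice of matched age without cancer cells that were given rat IgG. Sorting kept CD31+ cells and, per the study's methods, removed those with leukocyte (CD45, CD11b), epithelial (EpCAM) or mesenchymal (CD140a/b) markers and the GFP-labelled cancer cells. The ECs came from the whole lung, so vessels near and far from metastases were pooled. Arrays of a group are called biological replicates in the labels, and nothing there ties each array to its own animal, so that p-values reflect the spread between these samples alone.

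ATF4 is a transcription factor whose translation increases when the initiation factor eIF2 is phosphorylated, as happens during amino acid shortage, unfolded protein stress, viral infection or haem deficiency. It pairs with C/EBP family members at composite DNA elements and raises transcription of genes that import, make and charge amino acids, while Ddit3, Trib3 and Chac1 are classic late or feedback targets. Its protein level is set largely by translation, so a transcript measurement does not report its activity. Mitochondrial folate metabolism, fed by serine, supplies formate for purine and thymidylate synthesis and is prominent in dividing cells.

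The letters of the C/EBP-ATF response element, TGATGNAA on either strand, were looked for in the 250 bases before each RefSeq start site (build GRCm38.p6), because this is the kind of site at which ATF4 is known to bind. Of the 36 genes, 30 had an entry, and 7 of them (23.3%) held a match, against 3.45% of 32851 such windows of all genes. The matches with their 20 bases of flank follow, 5′ to 3′ along the gene's strand, with the element in capitals.
Asns (minus strand, chr6:7693210-7693252): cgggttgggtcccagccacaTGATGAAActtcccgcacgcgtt
Chac1 (plus strand, chr2:119351029-119351076): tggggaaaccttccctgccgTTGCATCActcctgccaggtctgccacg
Slc7a11 (minus strand, chr3:50443633-50443699): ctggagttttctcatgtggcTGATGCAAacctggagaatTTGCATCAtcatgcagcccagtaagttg
Aars (plus strand, chr8:111033710-111033757): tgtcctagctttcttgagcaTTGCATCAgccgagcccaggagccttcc
Gars (plus strand, chr6:55037951-55037998): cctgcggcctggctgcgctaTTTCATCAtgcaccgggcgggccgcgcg
Tars (minus strand, chr15:11399659-11399693): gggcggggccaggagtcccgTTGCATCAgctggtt
Herpud1 (plus strand, chr8:94386297-94386344): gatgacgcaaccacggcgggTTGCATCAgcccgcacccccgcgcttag
The element lay close to the start site in Tars, Asns and Gars, with its first base 15, 23 and 30 bases before it. It lay 112 bases before the start in both Aars and Herpud1, and Slc7a11 held the element on both strands, 66 and 47 bases before the start. By role, 3 of 8 tRNA synthetases with an entry held a match, and 0 of 5 folate enzymes did. The ER stress element, CCAAT and CCACG with 9 bases of any kind between them, present on either strand in 0.113% of all windows, was found in Hspa5.
Hspa5 (plus strand, chr2:34772005-34772063): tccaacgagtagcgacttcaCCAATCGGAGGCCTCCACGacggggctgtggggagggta
Psat1 and Mthfd2, which had the largest log2 differences between metastatic and healthy lungs of all 36 genes, had no match to either element in this window. Their 250 bases before the first listed start site are given for comparison with the sequences above.
Psat1 (minus strand, chr19:15925060-15925309): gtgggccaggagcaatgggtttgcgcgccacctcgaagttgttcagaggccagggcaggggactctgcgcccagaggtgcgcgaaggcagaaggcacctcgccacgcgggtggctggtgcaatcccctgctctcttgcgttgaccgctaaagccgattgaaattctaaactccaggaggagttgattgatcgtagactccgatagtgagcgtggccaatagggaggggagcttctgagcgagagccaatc
Mthfd2 (minus strand, chr6:83317605-83317854): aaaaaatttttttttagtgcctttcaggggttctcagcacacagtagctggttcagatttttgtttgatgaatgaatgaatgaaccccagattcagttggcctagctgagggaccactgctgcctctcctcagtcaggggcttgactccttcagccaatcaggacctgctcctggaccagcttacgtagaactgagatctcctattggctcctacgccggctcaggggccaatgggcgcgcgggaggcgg
These matches describe letters only. Slc7a5, Slc1a5, Slc38a1, Nars, Wars and Cars had no entry and were not searched.

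Before the results, the state of the samples is given in short. The 12 pan-endothelial markers, among them Pecam1 (CD31), Cdh5 and Kdr, lay between the 94.1 and 100 percentile of all genes by mean level. All 11 measured markers of cycling cells were higher in metastatic lungs with IgG than in healthy lungs (limma, adjusted p under 0.05; median log2 change 3.03), and their mean per array ran from 7.60 to 7.91 (healthy), 10.45 to 11.38 (metastatic, IgG) and 9.80 to 10.85 (metastatic, DC101). In the same comparison 6 of 12 lung epithelial markers and 2 of 6 erythrocyte and platelet markers were lower, 4 of 12 macrophage markers were higher, and 3 of 11 fibroblast and mural markers were higher and 1 lower. The 3-prime minus 5-prime difference of the Gapdh control, which reports on RNA quality, spanned 0.69 to 0.77 (healthy), 0.47 to 0.57 (metastatic, IgG) and 0.35 to 0.60 (metastatic, DC101). The Actb control spanned -0.11 to 0.09, 0.013 to 0.091 and 0.0037 to 0.14 in the same order and did not separate the groups. Between DC101 and IgG in metastatic lungs, the ranges of the cycling markers and of Gapdh overlapped, and limma called 0 markers of any list. At an unadjusted p under 0.05 there were 0 or 1 of each list, against 6.65% of all genes. All 11 cycling markers nevertheless lay below 0 in this comparison, with a median log2 difference of -0.40, against -0.02 for all genes. The part of these values in the differences between the groups was not tested. In sorted bulk samples, fewer cells of a kind and less RNA per cell cannot be told apart.

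ECs of metastatic lungs were first compared with ECs of healthy lungs, both under control IgG. The folate enzyme genes Mthfd2, Mthfd1l and Mthfd1, the serine synthesis gene Psat1 and the transporter gene Slc7a1 were higher in metastatic lungs. Shmt1 and Shmt2 did not pass, and the stress gene Herpud1 was lower. Atf4 itself and Ddit3 lay lower in every metastatic array than in every healthy one, and Trib3 and Cebpb lay higher. None of these regulators passed, and arrays lay lower without overlap in 13.9% of the 36 genes, near the 14.7% of all genes. By limma with Benjamini-Hochberg adjustment over all 18193 genes, 6 of 36 genes (16.7%) passed an adjusted p of 0.05, against 6.53% of all genes. Psat1, Mthfd2, Mthfd1l, Mthfd1 and Slc7a1 rose (5 genes, against 3.93% of all genes called higher), and Herpud1 fell (1 gene, against 2.6% called lower). At an unadjusted p under 0.05 there were 13 of the 36 genes, against 21.3% of all genes. The median log2 change of the 36 genes was 0.12, and that of all genes was -0.02.

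Arrays of both groups did not overlap for 17 of the 36 genes (47.2%), against 27.6% of all genes. With the study's cutoffs for its secreted-gene signature (an absolute log2 change above 0.75 with p below 0.05 and adjusted p below 0.25), 3 of the 36 genes were called, against 4.82% of all genes. Metastatic arrays were the higher ones in 12 of the 36 genes (33.3%), against 13% of all genes, and the lower ones in 5 of the 36 (13.9%), near the 14.7% of all genes. The map of single arrays shows how unevenly the roles contributed.

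**Figure D1:**
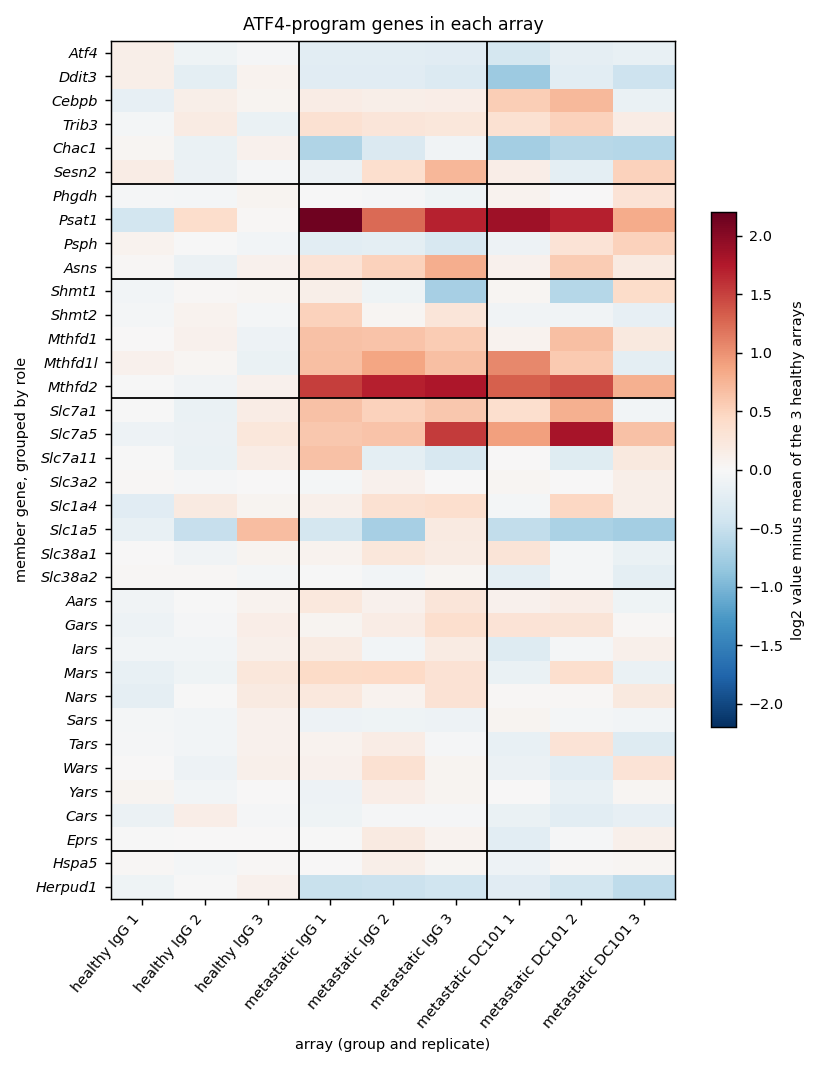
Each row is 1 of the 36 genes, grouped by role from regulators at the top to ER genes at the bottom, and each column is 1 array. Colour gives the log2 value minus the mean of the 3 healthy arrays. Psat1 and Mthfd2 stand out in all 6 metastatic arrays and are palest in DC101 replicate 3, whereas the tRNA synthetase rows stay close to the healthy mean.

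Among the one-carbon enzymes, 3 of 5 rose and the median log2 change was 0.61. Mthfd2, the mitochondrial enzyme that oxidises methylene-tetrahydrofolate and is low in most resting adult tissue, read 7.96, 7.89 and 8.07 in healthy lungs and 9.50, 9.68 and 9.75 in metastatic lungs with IgG on the log2 scale of the arrays. All 3 metastatic arrays lay more than a log2 unit above the highest healthy array. The rise was 1.67 on the log2 scale (SE 0.10), or 3.19-fold, with a limma adjusted p of 0.000500, and Mthfd2 kept its call when any 1 array was left out (adjusted p of 0.00166 to 0.00537). Its other probe set gave 2.11.

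Mthfd1l, the mitochondrial formyl-tetrahydrofolate synthetase that releases formate, read 9.27, 9.23 and 9.04 in healthy lungs and 9.83, 10.04 and 9.84 in metastatic lungs with IgG. It rose by 0.73 (log2, SE 0.11; limma adjusted p = 0.0112). Mthfd1, the trifunctional cytosolic enzyme that reuses this formate, read 11.06, 11.15 and 10.95 against 11.70, 11.68 and 11.61. Its arrays again did not overlap, and it rose by 0.61 (log2, SE 0.09; limma adjusted p = 0.0120). The call of Mthfd1l was lost when all 9 arrays shared 1 estimate of the spread (limma adjusted p = 0.165). That of Mthfd1 was lost when probe sets with the suffix _x, _s or _a were dropped (adjusted p = 0.0693), which left a dimmer probe set at 0.58.

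Shmt2 and Shmt1, the mitochondrial and cytosolic enzymes that move the carbon of serine onto folate, did not pass. Shmt2 read 10.22, 10.33 and 10.22 in healthy lungs and 10.76, 10.31 and 10.52 in metastatic lungs with IgG, so that only metastatic replicate 2 lay within the healthy range (log2 difference 0.27, limma adjusted p = 0.285). Its other probe sets gave 0.42, -0.11 and 0.30, none of them called. Shmt1 had a log2 difference of -0.24 (adjusted p = 0.586) with the probe set used, and of its other 3 probe sets 2 gave -0.25 and -0.14 and 1 gave 0.79, none of them called.

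In serine synthesis the 3 consecutive enzymes did not move together. Phgdh, which commits a glycolytic intermediate to serine, had a log2 difference of -0.04 (limma adjusted p = 0.842), with 9.59 ± 0.06 in healthy lungs and 9.55 ± 0.05 in metastatic lungs with IgG (SD, n = 3 per group); its 3 dimmer probe sets gave -0.23, -0.17 and -0.65, none of them called. Psat1, the aminotransferase of the middle step, read 7.82, 8.60 and 8.25 in healthy lungs and 10.35, 9.48 and 9.91 in metastatic lungs with IgG. Psat1 rose by 1.69 on the log2 scale (SE 0.27), or 3.23-fold (limma adjusted p = 0.0144), and its second probe set gave 1.58. All 4 probe sets of Phgdh end in _x, a type that can cross-hybridise, and the 2 of Psat1 end in _s and _a. Neither gene could therefore be tested without these types.

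Psat1 lost its call, though not its size, without metastatic IgG replicate 3 (log2 change 1.69, limma adjusted p = 0.0571) and without healthy replicate 1 (1.49, adjusted p = 0.0506). Psph, the phosphatase of the last step, lay lower in each metastatic array, at 9.63, 9.65 and 9.51 against 9.94, 9.85 and 9.80, and did not pass (log2 difference -0.27, adjusted p = 0.143). Asns, which makes asparagine and carries the element shown above, read 10.53, 10.37 and 10.60 in healthy lungs and 10.81, 11.01 and 11.30 in metastatic lungs with IgG. Its groups did not overlap, but its log2 difference of 0.54 missed the threshold (limma adjusted p = 0.0766); it passed with the mean of its probe sets (adjusted p = 0.0233).

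Of the 8 amino acid transporters, 1 passed. Slc7a1, the carrier of arginine and lysine, read 10.61, 10.47 and 10.78 in healthy lungs and 11.26, 11.12 and 11.22 in metastatic lungs with IgG, without overlap. It rose by 0.58 (log2, SE 0.11; limma adjusted p = 0.0246). That call is near the limit: it was lost when all 9 arrays shared 1 estimate of the spread (adjusted p = 0.123) and in 5 of 6 fits that left out 1 array, the exception being the one without healthy replicate 3, and the adjusted p of these fits ran from 0.0296 to 0.0828.

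Slc7a5, the light chain of the large neutral amino acid carrier LAT1, read 7.27, 7.24 and 7.62 in healthy lungs and 7.97, 8.00 and 8.92 in metastatic lungs with IgG. All metastatic arrays were above all healthy ones, and metastatic replicate 3 stood well above the others, so the log2 difference of 0.92 had an SE of 0.26 and did not pass (adjusted p = 0.0952). Slc3a2, the heavy chain with which Slc7a5 and the cystine carrier Slc7a11 pair, differed by 0.02, with a 95% interval from -0.18 to 0.22. Slc7a11 also differed by 0.02, but with a wide interval from -0.58 to 0.63, since metastatic replicate 1 read 7.30 and the others 6.44 and 6.31. Slc7a11 was also dim, with a mean of 6.66, where the array medians were 8.33 and the lowest value was 5.395. A change of this gene could therefore be missed.

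The glutamine carriers Slc38a1 and Slc38a2 had log2 differences of 0.17 and -0.01, neither of which passed. For the neutral amino acid carriers Slc1a4 and Slc1a5 the answer depended on the probe set. Slc1a5 gave -0.31 with the probe set used and 0.60 with its other one. Slc1a4 gave 0.27 with the probe set used and 0.81 and 0.57 with the others. It passed when probe sets with the suffix _x, _s or _a, among them the first, were left out (log2 change 0.81, limma adjusted p = 0.0419).

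**Figure D2:**
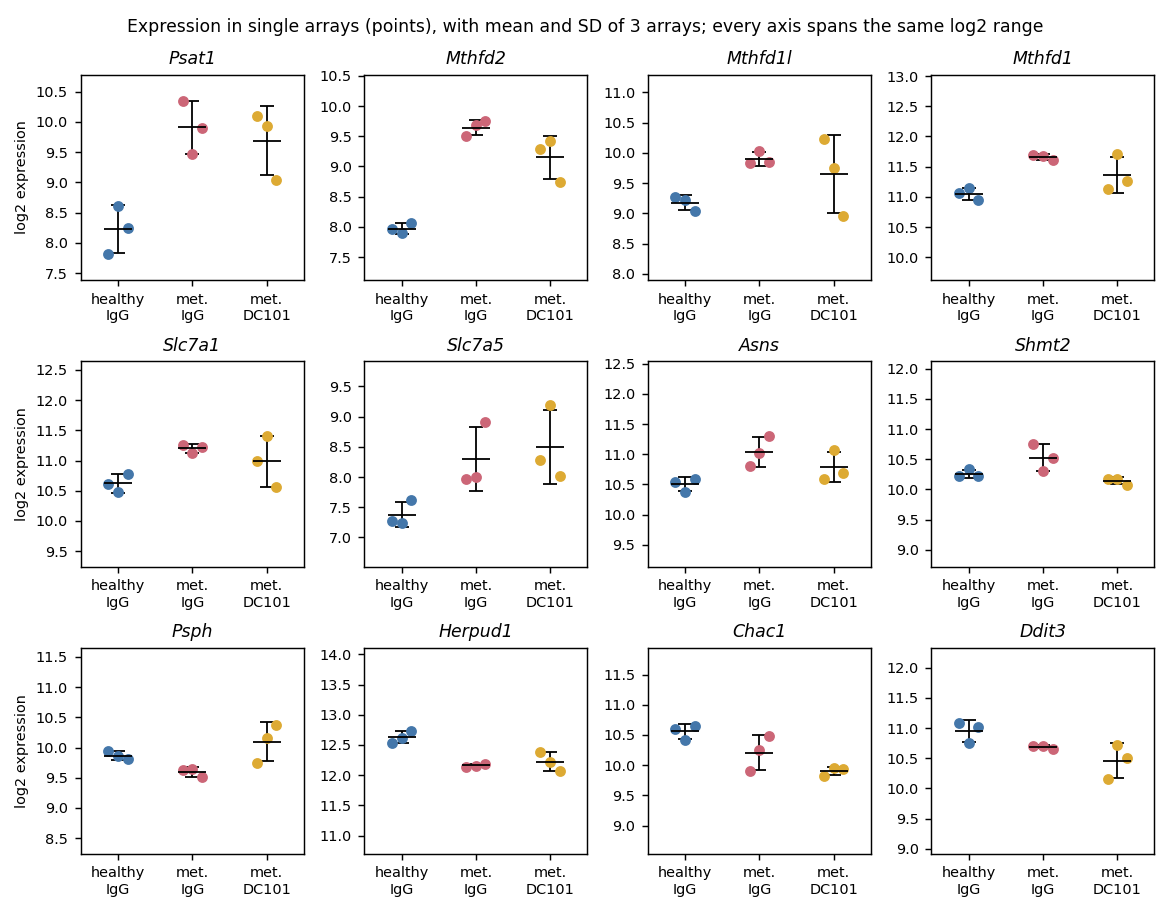
Log2 expression of 12 of the genes in single arrays (points; replicates 1 to 3 from left to right), with the mean and SD of 3 arrays per group (horizontal line and bars); every vertical axis spans the same range. Psat1 and Mthfd2 separate both metastatic groups from healthy lungs, Herpud1 and Chac1 lie lower under DC101 than in healthy lungs, and DC101 replicate 3 is the lowest DC101 array for Psat1, Mthfd2, Mthfd1l and Slc7a1.

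The tRNA synthetases, which load amino acids onto tRNAs and include many ATF4 targets, moved little. Of the 11, 0 passed (limma), and 1 had an unadjusted p under 0.05 (9.09%), against 21.3% of all genes. Their log2 differences ran from -0.11 to 0.39 with a median of 0.10, and 9 of 11 were above 0. Mars, the methionine enzyme, had the largest, with 11.43, 11.49 and 11.84 in healthy lungs and 12.02, 12.03 and 11.90 in metastatic lungs with IgG (adjusted p = 0.133). The groups did not overlap for Mars and Aars, with metastatic arrays higher, nor for Sars, with metastatic arrays lower by 0.11. Gars, Aars and Tars, which carry the element shown above, had differences of 0.20, 0.20 and 0.07. The enzymes for asparagine (Nars), tryptophan (Wars), isoleucine (Iars), glutamate and proline (Eprs), tyrosine (Yars) and cysteine (Cars) had differences of 0.21, 0.16, 0.10, 0.08, 0.03 and -0.05, all with overlap. Other probe sets differed in sign from the one used for Nars (-0.02), for Sars (0.0049) and for 1 dim probe set of Eprs (-0.63). The 3 others of Wars gave 0.26 to 0.43.

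Of the 6 regulators and feedback genes, 0 passed (limma), and 3 had an unadjusted p under 0.05 (50%), against 21.3% of all genes. Atf4 read 13.17, 12.94 and 13.01 in healthy lungs and 12.81, 12.81 and 12.78 in metastatic lungs with IgG. All metastatic arrays were below all healthy ones, by a mean of -0.24 (SE 0.09, limma adjusted p = 0.207). This rests on the probe set used: the other probe sets of Atf4 gave smaller differences of -0.11 and -0.03, neither of them called. With the probe set used, Atf4 passed in 1 of 13 alternative settings, a prior variance following the level (limma adjusted p = 0.0492). Ddit3, which encodes the pro-apoptotic factor CHOP, lay lower in the same way, with 11.09, 10.75 and 11.02 against 10.70, 10.71 and 10.66 (difference -0.27, adjusted p = 0.233). The dimmer probe set of Ddit3 gave -0.73 and was not called.

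Trib3, a pseudokinase that restrains ATF4 and CHOP, lay higher, with 10.75, 10.96 and 10.65 against 11.11, 11.06 and 11.03 (difference 0.28, adjusted p = 0.194). This too rests on the probe set used, since the other one of Trib3 gave only 0.06. Cebpb, a C/EBP partner of ATF4, did not overlap either, at a difference of 0.14. Chac1, which degrades glutathione, overlapped between the groups and had a difference of -0.35 (adjusted p = 0.263), and the stress-induced Sesn2, an inhibitor of mTORC1 signalling, had one of 0.32 (adjusted p = 0.452), though its other probe set gave -0.10. With the probe sets used, 3 of the 6 genes lay above 0 and 3 below.

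In the ER pair, Hspa5, the chaperone BiP, read 13.39 ± 0.04 in healthy lungs and 13.45 ± 0.06 in metastatic lungs with IgG (SD, n = 3 per group). Herpud1, which helps remove misfolded proteins from the ER, read 12.53, 12.62 and 12.73 against 12.14, 12.15 and 12.19, without overlap. It fell by 0.46 on the log2 scale (SE 0.09), or 1.38-fold (limma adjusted p = 0.0291), and its second probe set gave -0.50. Its call was lost in all 6 fits that left out 1 array (adjusted p of 0.0572 to 0.0881).

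**Figure D3:**
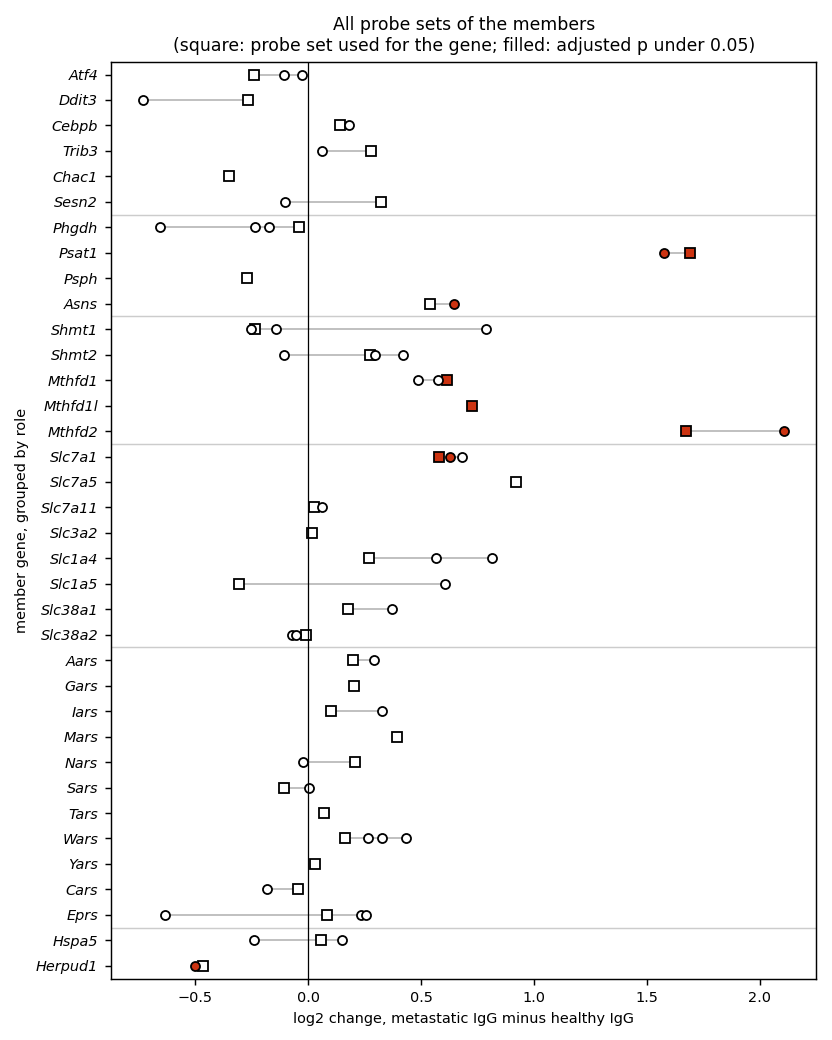
Log2 change from healthy to metastatic lungs with IgG for all 79 probe sets of the 36 genes. Squares mark the probe set used for the gene, circles the others, and filled symbols an adjusted p under 0.05 over all 45037 probe sets, a stricter adjustment than the one over genes. The filled symbols lie to the right except 1 probe set of Herpud1, which is not the one used for the gene, and Shmt1, Slc1a5 and Eprs have probe sets far apart on both sides of 0.

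Read over all 45037 probe sets in place of genes, 9 of the 79 probe sets were called higher and 1 lower by limma, against 3.66% of all probe sets called in either direction. In 8 of the 27 genes with more than 1 probe set, the probe sets differed in sign.

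The second comparison asked what blocking VEGFR2 with DC101 did to ECs of metastatic lungs. No gene passed: limma called 0 of 18193 genes and 0 of the 36 (0% of all genes), and 3 of the 36 had an unadjusted p under 0.05, against 6.65% of all genes. The median log2 difference of the 36 genes was -0.14, and that of all genes was -0.02; 26 of the 36 lay below 0. This comparison shares its IgG arrays with the first one, so a high IgG array pulls the same gene up in one and down in the other.

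The arrays did not overlap for 6 of the 36 genes (16.7%), against 12.4% of all genes. Phgdh, Psph and Sars lay higher with DC101 (8.33%, against 5.4% of all genes), and Shmt2, Mthfd2 and Cars lay lower (8.33%, against 6.95%). Psph had the largest difference, with 9.75, 10.16 and 10.38 under DC101 against 9.63, 9.65 and 9.51 with IgG (log2 difference 0.50, 95% interval 0.11 to 0.89, limma adjusted p = 0.741). Against the healthy range of 9.80 to 9.94, DC101 replicate 1 lay below and the other two above.

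Mthfd2 read 9.29, 9.41 and 8.75 under DC101, each below the lowest IgG array at 9.50. The log2 difference was -0.49 (95% interval -0.93 to -0.06, limma adjusted p = 0.741), and it was -0.29 without DC101 replicate 3. With the probe set used, Shmt2 read 10.17, 10.18 and 10.08, below all IgG arrays and all healthy ones. The difference to IgG was -0.38 (95% interval -0.70 to -0.07, limma adjusted p = 0.741). Its other probe sets gave -0.21, 0.09 and -0.41 against IgG, and 0.21, -0.02 and -0.12 against healthy lungs, none of them called. Mthfd1, at 11.13, 11.71 and 11.27, and Mthfd1l, at 10.23, 9.75 and 8.96, overlapped with the IgG arrays. Their differences were -0.30 and -0.26, so 4 of 5 one-carbon enzymes lay below 0 without passing.

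Psat1 under DC101 read 10.10, 9.93 and 9.04 with the probe set used. Its difference to IgG was -0.22 with a 95% interval from -0.97 to 0.52, which for this probe set leaves room for a fall or a rise. The second probe set of Psat1 gave a larger fall of -0.57 (SE 0.20), which did not pass either (limma adjusted p = 0.767). Asns, at 10.59, 11.06 and 10.69, differed by -0.26, and Slc7a1, at 11.00, 11.41 and 10.57, by -0.21, both with overlap. Slc7a5, at 8.28, 9.18 and 8.02, differed by 0.20. Of the 11 tRNA synthetases 9 lay below 0, with a median of -0.14 and the largest difference in Mars, at -0.36 (limma adjusted p = 0.741).

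The DC101 arrays varied more among themselves in these genes than the other groups did. The median SD of the 36 genes was 0.21 with DC101, against 0.11 in healthy lungs and 0.10 in metastatic lungs with IgG, where the medians over all genes were 0.17, 0.14 and 0.14 in the same order. DC101 replicate 3 had the lowest value of its group for 15 of the 36 genes, close to its share of 41.9% over all genes. The mean of the cycling markers was also lowest in this array of the DC101 group, at 9.80, with 10.85 and 10.74 in replicates 1 and 2.

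**Figure D4:**
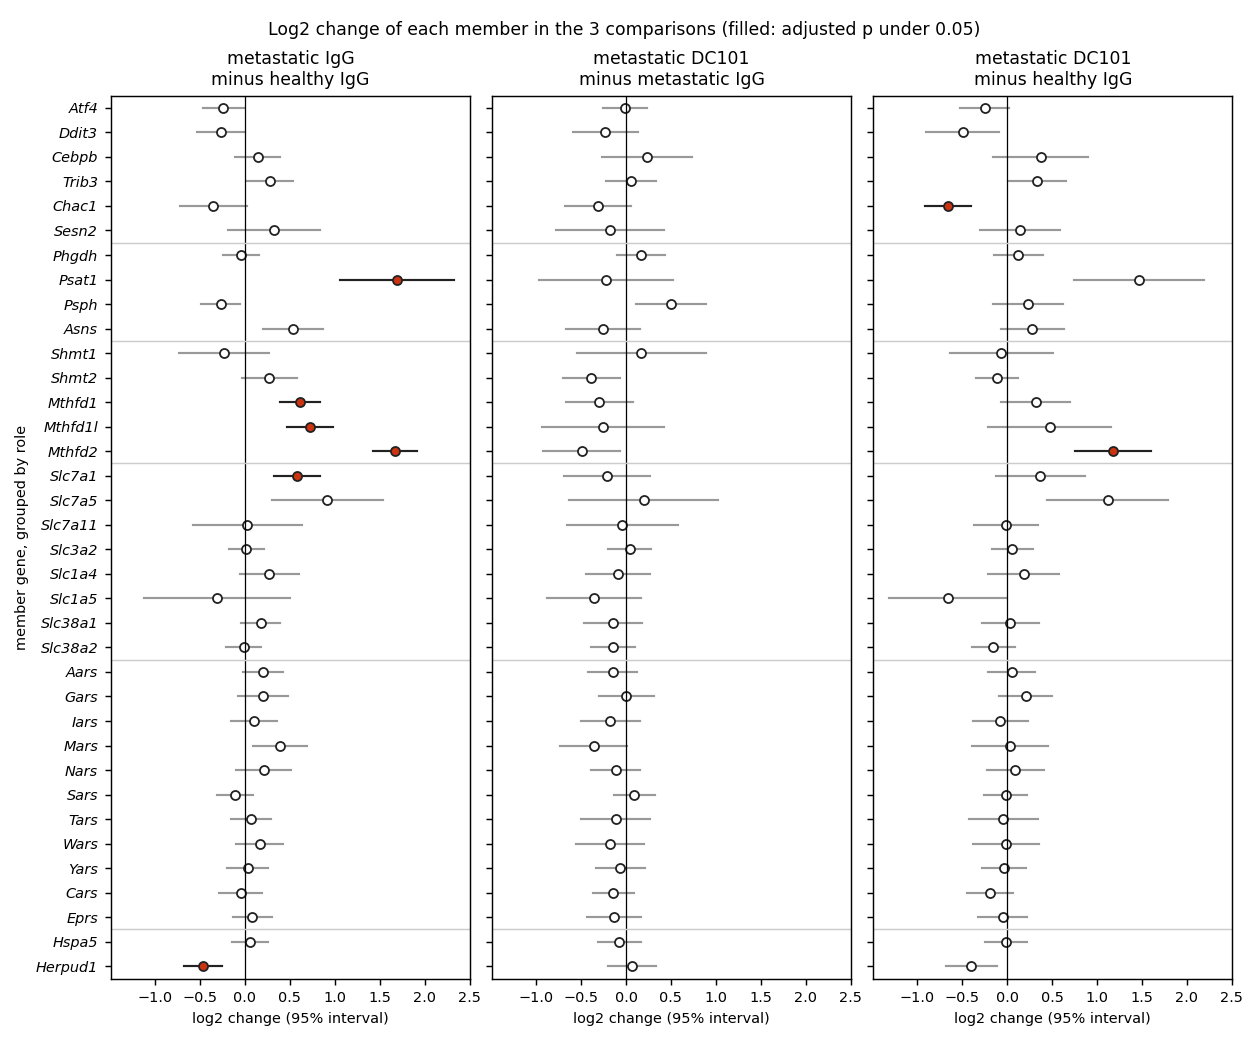
Log2 change of each of the 36 genes (circles) with its 95% interval (lines) in the 3 comparisons, each fitted with limma on its own 6 arrays; filled circles mark an adjusted p under 0.05 over all genes. There are 6 filled circles for metastatic against healthy lungs under IgG, 0 for DC101 against IgG and 2 for DC101 against healthy lungs, and neighbouring panels share arrays.

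The third comparison set ECs of metastatic lungs under DC101 against ECs of healthy lungs, and it shares its arrays with both others. By limma, 2 of the 36 genes passed (5.56%), against 2.42% of all genes. Mthfd2 rose (1.58% of all genes were called higher), and Chac1 fell (0.835% were called lower). At an unadjusted p under 0.05 there were 8 of the 36 genes, against 17% of all genes, and the study's cutoffs called 3, against 3.6%. The median log2 difference of the 36 genes was 0.03, and that of all genes was -0.04.

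Mthfd2 rose by 1.18 on the log2 scale (SE 0.18), or 2.26-fold (adjusted p = 0.0227), where the first comparison gave 1.67. The call held without DC101 replicate 3 (1.38, limma adjusted p = 0.00435) and was lost when any 1 of the other 5 arrays was left out (adjusted p of 0.0631 to 0.0962). Chac1 read 9.82, 9.95 and 9.93 under DC101 against 10.61, 10.42 and 10.65 in healthy lungs, without overlap. It fell by 0.66 (log2, SE 0.11), or 1.58-fold (limma adjusted p = 0.0300), and its call was lost in all 6 fits that left out 1 array (adjusted p of 0.0604 to 0.123).

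Psat1 had the largest difference, 1.47 (SE 0.31), with all DC101 arrays above all healthy ones, and missed the threshold (limma adjusted p = 0.0622). It passed in 5 of 12 alternative settings, among them the one without DC101 replicate 3 (1.79, limma adjusted p = 0.0217). Its second probe set gave 1.01 and was called over all 45037 probe sets (limma adjusted p = 0.0418). Slc7a5 had a difference of 1.12, also without overlap (adjusted p = 0.111). Mthfd1l and Mthfd1, called in the first comparison, had differences of 0.47 and 0.32 and overlapped with the healthy arrays, as did Slc7a1 at 0.37. Whether the changes under IgG and under DC101 differ is the second comparison, in which none of these genes passed.

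In all, 11 of the 36 genes (30.6%) had arrays that did not overlap, against 23.1% of all genes. Psat1, Mthfd2 and Slc7a5 lay higher under DC101 (8.33%, against 9.44% of all genes), and the 8 others lay lower (22.2%, against 13.6%). Among these 8, Atf4 read 12.66, 12.84 and 12.87 (difference to healthy -0.25, limma adjusted p = 0.336), Ddit3 read 10.15, 10.72 and 10.51 (-0.50, adjusted p = 0.205) and Herpud1 read 12.38, 12.23 and 12.07 (-0.40, adjusted p = 0.157). The rest were Chac1, Shmt2, Slc1a5, Slc38a2 and Cars. For Shmt2, Slc1a5 and Slc38a2, another probe set gave the opposite sign. The tRNA synthetases had a median of -0.02, with 4 of 11 above 0.

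Other genes of these pathways, from lists written alongside the 36 genes, are given next for metastatic against healthy lungs under IgG. They are to be read against the 6.53% of all genes called and the 21.3% with an unadjusted p under 0.05. Of 20 further ATF4 and amino acid response genes, 2 were called higher and 2 lower by limma (20%), with a median of 0.01. Of these 20, 8 had an unadjusted p under 0.05. Aldh18a1, which starts proline synthesis, rose by 0.89 (adjusted p = 0.00940), Eif4ebp1, a brake on cap-dependent translation, rose by 0.61 (adjusted p = 0.00980), and Jdp2, a repressor of the AP-1 family, fell by 0.58 (adjusted p = 0.0274). Of 8 genes for eIF2 kinases and eIF2 dephosphorylation 2 were called (25%): Eif2ak2 rose by 1.32 (limma adjusted p = 0.00110) and Impact fell by 0.53 (adjusted p = 0.0241). Of these 8, 3 had an unadjusted p under 0.05, and the median was -0.10. Eif2ak2 encodes PKR, the kinase that senses double-stranded RNA and is itself an interferon-induced gene, and Impact encodes an inhibitor of the amino acid sensing kinase GCN2.

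Of 14 further folate, glycine and methionine cycle genes 0 passed (limma). At an unadjusted p under 0.05 there were 4, against 21.3% of all genes, and 11 lay above 0, with a median of 0.21. Further cytosolic tRNA synthetases and their cofactors gave 0 calls of 11, 3 at an unadjusted p under 0.05, and a median of 0.12 with 10 above 0. The 16 mitochondrial tRNA synthetases gave 0 calls, 1 at an unadjusted p under 0.05, and a median of -0.05. Of 18 further amino acid transporters 0 were called higher and 2 lower: the glutamine carrier Slc38a5 fell by 1.13 (limma adjusted p = 0.0296), and the lysosomal arginine sensor Slc38a9 fell by 0.53 (adjusted p = 0.0419). Yet 9 of the 18 had an unadjusted p under 0.05, against 21.3% of all genes, and 12 lay above 0, with a median of 0.06. Of 23 further ER stress genes, 1 passed, the transcription factor Xbp1, which rose by 0.45 (limma adjusted p = 0.0430). Of these 23, 4 had an unadjusted p under 0.05, and the median was 0.01.

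For DC101 against IgG in metastatic lungs, limma called 0 genes of any of these 7 lists. At an unadjusted p under 0.05 there were 4 of 18 transporters, 3 of 14 folate cycle genes and 3 of 20 ATF4 response genes, against 6.65% of all genes. There were 2 of 23 ER stress genes, 1 of 11 cytosolic synthetases and cofactors, and 0 in the eIF2 and mitochondrial synthetase lists. Of the 14 folate cycle genes 11 lay below 0, with a median of -0.22. For DC101 against healthy lungs limma called Eif2ak2, which rose by 1.27 (adjusted p = 0.00319), and Slc38a5, which fell by 0.99 (adjusted p = 0.0412), and no other gene of the lists.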

How the data were processed

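RNA of sorted lung ECs was labelled with a 3′ IVT Pico kit and hybridised to Affymetrix Mouse Genome 430 2.0 arrays. The deposited values are log2 expression per probe set, 1 column per array, which the authors obtained by robust multiarray averaging (RMA) in Chipster. The log base is not written in the table and was read as 2 because that is what RMA gives. RMA equalises the arrays, so a change of total RNA cannot be seen, and low probe sets understate changes.

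Of 45101 probe sets, 64 controls, 932 with several symbols and 9160 unnamed here were left out, which left 34945 for 18193 genes. A gene was read from its probe set with the highest mean. Groups came from the labels. Each comparison was fitted on its own 6 arrays in R 4.3.3 with limma 3.58.1 (lmFit, eBayes; two-sided tests), with Benjamini-Hochberg adjustment over all genes and a call at 0.05, after the study's empirical Bayes test. Errors of log2 changes are moderated SEs. The procedure was tested on simulated data. The 36 genes and all lists were chosen with earlier results of these data known, so no test over a list was made. All 36 genes are described; of each further list, at most the 3 called genes with the largest change were named.

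Replicate numbers did not pair the arrays: deviations from group means of same-numbered arrays correlated at -0.054 to 0.084. Alternatives were a shared fit of all 9 arrays, a replicate block, leaving out each array, the mean of all probe sets, no cross-hybridising types, bright genes only, no variance moderation, a prior variance following the level, and the study's cutoffs for its secreted-gene signature. Groups of 3 arrays were not screened for outliers. The number of arrays limits the precision.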

Additional observations from a re-analysis of the deposited data

How the results depend on the processing

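None of the 36 genes (the members) changed direction in a setting in which it was called, or where it was called in the reported fit; uncalled values were not read for direction. In metastatic against healthy lungs under IgG, the 1188 genes called became 376 without variance moderation and 556 to 759 with 1 array left out, and the 6 members called became 2 without moderation, 3 at the study's cutoffs and 3 to 5 with 1 array left out. With 1 array left out, the lowest counts, 556 genes and 3 members, came without healthy replicate 1, and 3 members also without metastatic IgG replicate 3. Counts rose to 7 members (1260 genes) with the mean of all probe sets. They rose to 8 members (1777 genes) with the prior variance following the level, where Atf4 was called lower (limma adjusted p = 0.0492). The median change of the members, 0.12, was 0.17 over the 29 left without _x, _s and _a probe sets and 0.077 to 0.16 with 1 array left out. For DC101 against IgG, 0 genes and 0 members passed in every setting (limma; unadjusted p under 0.05 in 644 to 1943 genes), and the median was -0.13 to -0.081 with 1 array left out. For DC101 against healthy lungs, the 440 genes became 662 in the shared fit, 14 without moderation and 110 to 361 with 1 array left out, lowest without healthy replicate 1 and highest without DC101 replicate 3. The 2 members called became 0 without moderation (5 at an unadjusted p under 0.05) and 0 to 2 with 1 array left out; the count of 2 came without DC101 replicate 3, as Mthfd2 and Psat1. The median was -0.011 to 0.079 with 1 array left out. In the shared fit, with the mean of all probe sets and with the prior variance following the level, 3 members were called. The replicate block, for numbers that do not pair the arrays, gave 689 genes and 4 members in the first comparison (Psat1, Slc7a1 and Herpud1 lost at adjusted p of 0.0609, 0.0556 and 0.0763, Slc7a5 gained at 0.0462), 0 and 0 in the second and 247 and 0 in the third (8 members at an unadjusted p under 0.05), and 2 of 6 arrays in each comparison deviated most like the array of their own number. Beyond the losses given with each gene, Psat1, Mthfd1l, Slc7a1 and Herpud1 in the first comparison and Mthfd2 and Chac1 in the third lost their calls without moderation. The causes were not tested.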
